A study of Apis mellifera with 9 samples.

Results

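The genes described here were lower in honey bee (Apis mellifera) larvae on food with 0.25 mM quercetin, while their mean at 0.1 mM quercetin stayed between 0.9 and 1.1 times the control mean. Of 15314 features in the deposited count table, 346 had this pattern. Honey bees are social insects whose larvae are fed glandular food by nurse bees. Quercetin is a plant flavonol that bees take in with pollen, nectar and honey, and in adult honey bees cytochrome P450 enzymes of the CYP6AS group are known to break it down. A larva takes such compounds up through the midgut, which makes the gut the first tissue to meet them.

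The larvae had been taken as newly hatched animals from a colony and reared for 3 days on semi-artificial food of royal jelly, glucose, fructose and yeast extract. All diets shared this food, which held no added quercetin in controls, 0.1 mM in the lower and 0.25 mM in the higher dose. Each diet had 3 RNA-seq libraries from independent replications of 10 to 12 larvae, and the labels do not say whether the RNA of a replication was pooled or whether replications came from separate colonies. The labels give whole larvae as source but frozen midguts in the extraction protocol, and the tissue could not be checked against marker genes because 0 of the 15314 identifiers matched the 12398 genes of the RefSeq table (Amel_HAv3.1). The members therefore have no gene names here, and their functions are not described.

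Membership was decided by measured values. Abundance was expressed as CPM, a library's count scaled to a fixed total over its features. A member had a mean of at least 5 CPM over the 9 libraries and a ratio of the 0.1 mM mean to the control mean between 0.9 and 1.1. All 3 libraries of 0.25 mM lay below the 6 others, and the control mean was at least 1.4 times the 0.25 mM mean. Features with all 3 libraries of 0.1 mM below all 3 controls were left out. The fall at 0.25 mM and the closeness of 0.1 mM to control are thus what chose the genes, and their values below are a description.

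Library totals on features ran from 34456449 to 42874091 reads. The 3 columns of 0.25 mM carry an identical heading and are called libraries a, b and c in table order. Libraries b and c stand apart from a in the shares of reads outside features, with 18% and 18.4% unaligned reads in b and c, 17.3% in a and 17% to 17.7% in the other diets. Reads on no feature were 12.2% and 12.1% in b and c, 12.9% in a and 13.2% to 13.8% in the other diets. The part of these differences in the results was not tested. In such bulk samples, fewer cells of a type and less RNA per cell cannot be told apart.

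The fall of the members was moderate, and most of them were of low or middle abundance. Their share of the reads on features was 2.04% ± 0.0453 in control libraries, 1.94% ± 0.032 in those of 0.1 mM and 1.34% ± 0.307 in those of 0.25 mM (SD over 3 libraries each). The ratio of the control mean to the 0.25 mM mean had a median of 1.52 over the members, with an interquartile range of 1.44 to 1.63. It reached 1.6 in 109 members, 1.8 in 32 and 2 in 12, and the largest value was 2.64. The median member had 24 CPM, against 38.3 CPM over the 8158 features of at least 5 CPM, and the range ran from 5.05 to 1508 CPM. Members made up 6.19% of the features between 5.01 and 14.8 CPM, and 1.84% of those at 102 CPM or more. The smallest count of any member in any library was 72 reads, where counting alone gives an error of 11.8%.

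The size of the fall differed little with abundance. With the members split by abundance into 3 classes of 116, 115 and 115 genes, the median ratio was 1.54 in the lowest class, 1.54 in the middle class and 1.48 in the highest. Of the 12 members with a ratio of at least 2, 6 were in the lowest class and 1 in the highest. Replicates varied more at 0.25 mM than in the other diets. The median coefficient of variation over the members was 5.41% in control, 5.01% at 0.1 mM and 22.3% at 0.25 mM, beside 5.39%, 5.83% and 10.6% over all features of at least 5 CPM.

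At 0.25 mM library a stood apart from b and c. Relative to the control mean, the median member stood between -0.03 and 0.02 on the log2 scale in the controls and at -0.04, -0.11 and -0.06 in the 3 libraries of 0.1 mM. At 0.25 mM it stood at -0.28 in library a, -0.82 in library b and -0.77 in library c, as the plot of members by library shows. Library a therefore lay nearer to the 0.1 mM libraries than to the other libraries of its own diet. The median over all features of at least 5 CPM was -0.11, -0.11 and -0.12 in libraries a, b and c on this scale. With TMM-scaled library sizes, which allow for a few abundant transcripts taking up more of a library, these became -0.02, -0.05 and -0.05, and the members stood at -0.19, -0.76 and -0.69.

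**Figure D1:**
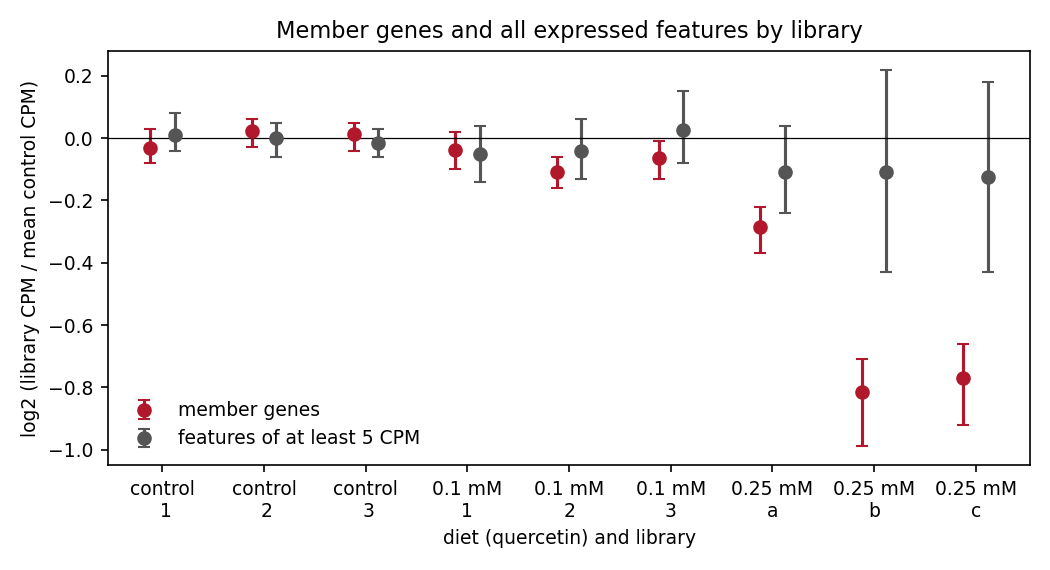
Median log2 ratio of each library's CPM to the mean control CPM, with bars for the interquartile range over genes, for the 346 members (red) and for the 8158 features of at least 5 CPM (grey). The members lie at -0.82 and -0.77 in libraries b and c of 0.25 mM and at -0.28 in library a.

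GB54688-RA had the largest fall of the members, both against control and against 0.1 mM. It had 10.1, 9.03 and 9.88 CPM in controls, 10.1, 10.1 and 8.35 CPM at 0.1 mM, and 6.46, 1.98 and 2.54 CPM in libraries a, b and c of 0.25 mM. Libraries b and c were far below the rest and library a lay between them and the lowest 0.1 mM library. The log2 fold change at 0.25 mM against control was -1.32 ± 0.364 (± SE; edgeR quasi-likelihood test, adjusted p = 0.0236). The call was lost on omission of any control, of b or of c. The fold change was -1.0 without b, -1.10 without c, -2.01 without a and -0.48 without both b and c, which was tried only once the data had been seen.

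GB47592-RA, second on both measures, had 6.97, 7.98 and 6.61 CPM in controls, 6.77, 7.49 and 5.6 CPM at 0.1 mM, and 5.04, 1.76 and 1.84 CPM at 0.25 mM. Library a was close to the other diets here, since the lowest of their 6 libraries was 1.11 times its value. The log2 fold change against control was -1.23 ± 0.361 (edgeR, adjusted p = 0.0281), and this call too was lost without any control, library b or library c. At 0.1 mM it was -0.11, with a 95% interval from -0.89 to 0.67; that interval reaches beyond the median fall of the members at the higher dose.

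The most abundant member, GB55537-RA, had 1682, 1865 and 1612 CPM in controls, 1587, 1606 and 1693 CPM at 0.1 mM, and 1425, 1009 and 1095 CPM at 0.25 mM. Its log2 fold change against control was -0.47 ± 0.128 (edgeR, adjusted p = 0.0225), and the call was lost without control 2, library b or library c. GB45258-RA, the second most abundant, had 836, 895 and 903 CPM in controls, 880, 820 and 780 CPM at 0.1 mM, and 759, 501 and 521 CPM at 0.25 mM. Its log2 fold change was -0.49 ± 0.155 (edgeR, adjusted p = 0.0368). This call was lost in 7 of the 9 fits that left out a library, with adjusted p up to 0.139 in edgeR. In both genes library a was closer to the lowest library of the other diets than to b or c.

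**Figure D2:**
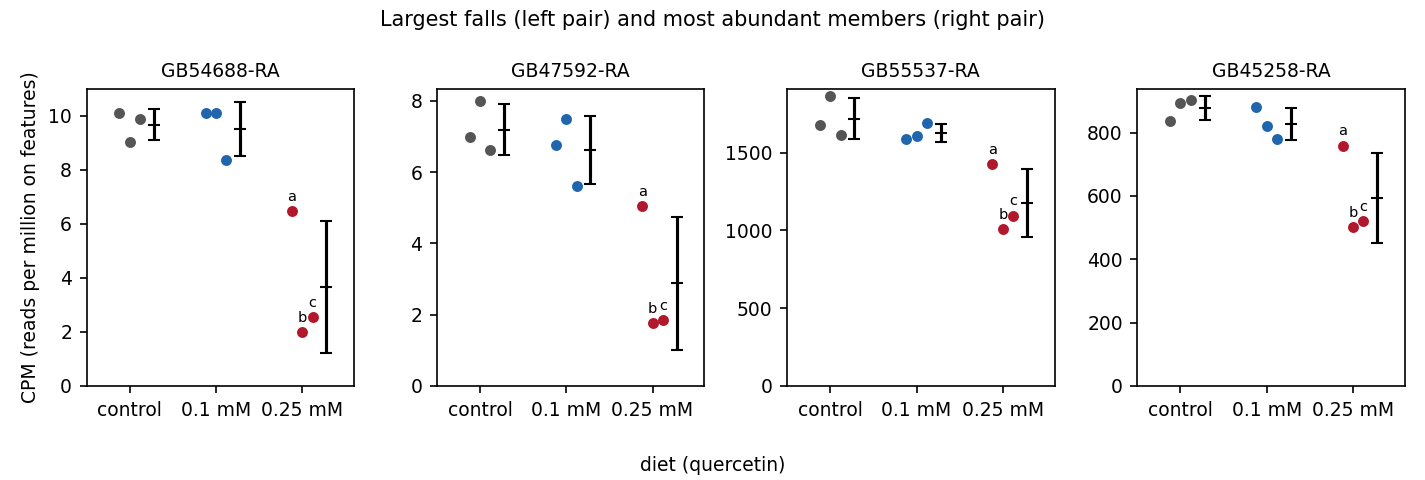
CPM (linear axis from 0) of the members with the largest falls, GB54688-RA and GB47592-RA, and of the most abundant ones, GB55537-RA and GB45258-RA, in each library of each diet, with the mean and SD of 3 libraries as a bar. In each gene libraries b and c lie lowest and library a lies between them and the other diets.

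The thresholds cut through a continuous range. The members nearest to the required fall were GB50216-RA and GB50042-RA, with ratios of 1.4019 and 1.4021, and the nearest genes outside were GB41973-RA and GB41824-RA, both at 1.3998. GB50216-RA had 17.4, 15.7 and 16.1 CPM in controls, 16.2, 14 and 14.2 CPM at 0.1 mM and 12.8, 11.4 and 10.9 CPM at 0.25 mM, and the control mean was 1.28, 1.44 and 1.5 times libraries a, b and c. GB50042-RA had 186, 195 and 190 CPM in controls, 187, 175 and 179 CPM at 0.1 mM and 173, 114 and 120 CPM at 0.25 mM, so that library a was barely below the lowest library of 0.1 mM. GB41973-RA averaged 57 ± 12.4 CPM at 0.25 mM and 79.8 ± 2.12 CPM in control, and GB41824-RA 7.07 ± 1.19 and 9.9 ± 0.8 CPM (SD, n = 3 each). For 0.25 mM against control, the edgeR adjusted p was 0.0177 for GB50216-RA and 0.0516 for GB50042-RA. It was 0.043 for GB41973-RA and 0.0438 for GB41824-RA, so membership and the call at 0.05 differed at this edge. With 1 library left out, the call was lost in 5 of 9 fits for GB50216-RA and in 8 of 9 for each gene outside. At the lower edge of the 0.1 mM band, the ratios closest inside were 0.9001 and 0.9002 and those closest outside 0.8999 and 0.8996. The mean abundance of the nearest members was 5.046 and 5.092 CPM, and that of the nearest genes under the minimum 4.986 and 4.834 CPM. A further 1127 features met every criterion but the size of the fall, and 161 every criterion except that all 0.1 mM libraries lay below all controls.

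Within the band, most members leaned to the low side at 0.1 mM. The 0.1 mM mean was below the control mean in 313 members and above it in 33, with a median ratio of 0.949 and a highest ratio of 1.06. Over all features of at least 5 CPM the median ratio was 0.986. In the 2532 of these whose 0.25 mM libraries all lay below every library of the other diets, it was 0.941. The lean was thus shared by features with this separation and was not particular to the members. The control mean enters both ratios of the rule, and its part in the lean was not tested. In the 33 members with the higher mean at 0.1 mM, the median ratio of the control mean to library a was 1.16, to library b 1.75 and to library c 1.7. The 161 genes left out for their ordered libraries had a median 0.1 mM to control ratio of 0.916 and a median ratio of control to 0.25 mM of 1.53. The median of the members was 1.52.

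The same rule turned round found 36 genes that were raised only at 0.25 mM, against 346 lowered. The balance depended on the scaling. On the TMM scale the 2 rules gave 120 raised and 166 lowered genes, which were not all among those found with plain totals.

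The fall in library a was small in most members. The control mean was at least 1.4 times the value of library a in 31 of 346 members, against 344 for library b and 342 for library c. Over the 8158 features of at least 5 CPM these falls were seen in 4.23%, 21.6% and 21.3%. Library a was the highest of the 3 libraries in 340 members, or 98.3%, and in 45.5% of those features. In 182 members the lowest control or 0.1 mM library was less than 1.1 times library a, which was so in 0 members for b and 0 for c. The median ratio of that lowest library to a, b and c was 1.1, 1.6 and 1.54 over the members. It was 0.984, 0.974 and 0.982 over all features of at least 5 CPM. In the 2532 of these with all 3 libraries of 0.25 mM below the 6 others, it was 1.07, 1.28 and 1.27. Where a fell little, the required mean fall forces larger ones in b and c. On the log2 scale library a showed a median of 0.343 of the fall seen in b and c together, and less than 0.5 in 276 members. The same median was 0.378 in the 161 genes left out for their ordered libraries and 0.403 of the rise in the 36 raised genes. In the 2532 features with separated libraries it was 0.505. Over all features of at least 5 CPM it was 0.377. There the value ran from -3187 to 461, as the change in b and c can be near 0, so it is no stable background. Across the members, the log2 falls in libraries b and c had a Pearson r of 0.85, against 0.144 for a and b and 0.0569 for a and c. These values describe 346 genes picked on the same libraries, each fall shares the control mean, and the narrow range of library a limits its correlations.

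The 31 members with a fall of at least 1.4-fold in library a, chosen after their values were seen, were of low abundance, with a median of 11.8 CPM against 27.1 CPM in the other 315. Their median ratios of control to libraries a, b and c were 1.47, 1.82 and 1.72. In 6 members library a was not the highest of its diet. At the other end were 10 members with a ratio of at most 1.1 in library a, whose median ratio was 1.74 in b and 1.75 in c.

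**Figure D3:**
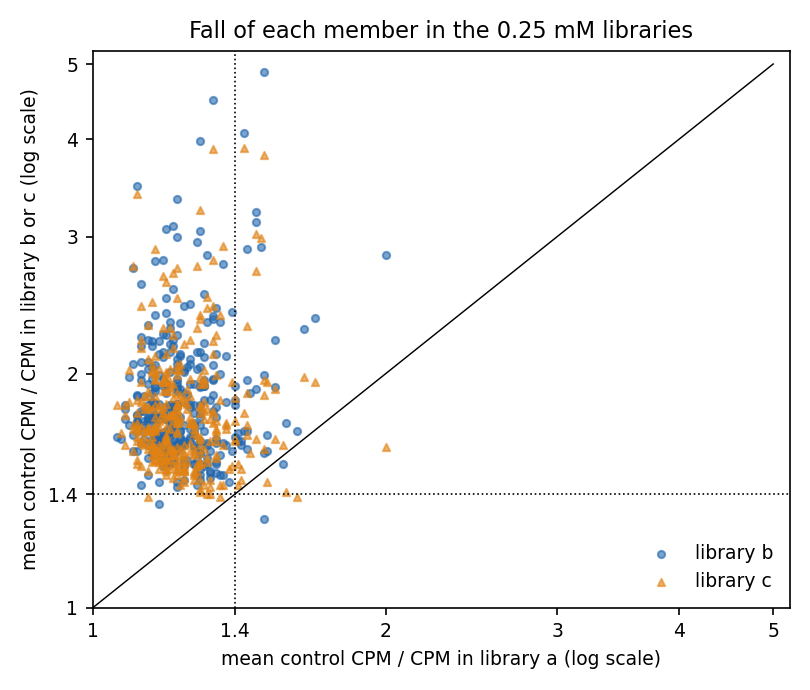
Ratio of the mean control CPM to the CPM in library a (horizontal) and in library b (circles) or c (triangles) of 0.25 mM (vertical) for each of the 346 members, on log axes, with equality as a line and the 1.4-fold fall dotted. Of the members, 31 pass 1.4-fold in library a, 344 in b and 342 in c.

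All 3 libraries of 0.25 mM lay below the 6 others in 2532 of the 8158 features of at least 5 CPM, or 31%, so that the separation required of the members was common in these libraries. On the TMM scale it was met by 1314 features. Of the 346 members, which were chosen for this separation on plain totals, library a lay below all 6 others in 225 on that scale. Libraries b and c did so in all 346. The shares for a, b and c were 22.7%, 42.2% and 41.5% of all features of at least 5 CPM, averaged without the library read. On the TMM scale the full rule held for 133 of the members.

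In the fit across all 11508 genes that passed the low-count filter, which included the 346 members, 314 members were called lower at 0.25 mM against control (quasi-likelihood test of edgeR, p adjusted over all genes by Benjamini-Hochberg, threshold 0.05). Of all genes tested, 18.5% were called lower. The rule used this contrast, and the count is a description. The remaining 32 members had adjusted p between 0.0503 and 0.0898 in edgeR and log2 fold changes between -0.93 and -0.41. The median log2 fold change over the members was -0.52, with a range from -1.32 to -0.41 and a median SE of 0.147, beside a median of 0.01 over all genes. The count of 314 became 43 without library c and 73 without library b, where 3.72% and 5.75% of all genes were called lower. It was 178, 78 and 96 without controls 1, 2 and 3, beside 11.4%, 5.7% and 7.91% of all genes, and 346 without library a, beside 28.6%. With only the 6 libraries of the compared diets it was 121, beside 9.41%.

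Between the doses, 0 of the 346 members were called lower at 0.25 mM against 0.1 mM in edgeR, and 0% of all genes. The adjusted p of the members in edgeR ran from 0.0774 to 0.174. An unadjusted p under 0.05 was found for 342 members and for 34.1% of all genes, and DESeq2 called 256 members, where it called 9.52% of all genes lower. The median log2 difference over the members was -0.47. Without library a, edgeR called 345 members and 24.9% of all genes lower. The rule had placed every library of 0.25 mM below every library of 0.1 mM in the members. These counts are therefore a description too, and the shares of all genes are not a like comparison.

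At 0.1 mM against control, 0 members were called in edgeR in either direction, beside 0.0695% of all genes. DESeq2 also called 0 members, beside 1.28% of all genes. The count at an unadjusted p under 0.05 was 0 of 346 members in edgeR, beside 9.01% of all genes, as the rule keeps the ratio of these means near 1. The log2 fold change was below 0 in 312 members, with a median of -0.07. The 95% interval left out a fall of 1.4-fold in 273 members and a fall of 1.2-fold in 13. The rule chose estimates near 0, so these counts are a description and no evidence that such falls were absent. The interval included 0 in all 346 members, so a small decrease at 0.1 mM could not be told from none. The contrasts of the 2 doses with control share the control libraries.

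Whether the 0.1 mM value lay off a straight line between control and 0.25 mM was tested for each gene. If the log2 level fell in proportion to dose, 0.1 mM would lie 0.4 of the way to the level of 0.25 mM. The members lay above that line by a median of 0.15 on the log2 scale, in the direction that the rule selects. No member departed from the line in edgeR (0 of 346 with an adjusted p under 0.05, 9 at an unadjusted p under 0.05), and 0% of all genes did. The unadjusted share was 2.6% of the members and 4.04% of all genes. DESeq2 called 0 members and 0.191% of all genes. The smallest adjusted p of a member in edgeR was 0.931. Without library a, 121 members lay above the line in edgeR, beside 4.17% of all genes. A fall limited to the higher dose was thus not distinguished from a graded one for any single member with all 9 libraries.

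The rule was then applied to 8 libraries at a time and the chosen genes were read in the ninth, which had not been used to choose them. The libraries it was compared with had been used in the choice, so the shares can partly reflect that choice. Without library a, 755 genes were chosen, among them all 346 members. In library a, 562 of the 755, or 74.4%, lay below all 6 control and 0.1 mM libraries, against 44.3% of all features of at least 5 CPM. The fall there was small. The median ratio of the control mean to library a was 1.16 in the chosen genes and 1.08 over those features, and it reached 1.4 in 4.11% of the chosen genes and 4.26% of the features. The share below all 6 libraries was 41.7% on the TMM scale, against 22.7% of all features.

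Libraries b and c gave another picture. Of 208 genes chosen without library b, 205 lay below all 6 other-diet libraries in it (98.6%, against 46.9% of all features), with a median ratio of 1.92, and 97.1% reached 1.4. Of 246 genes chosen without library c, 243 did so (98.8%, against 48.1%), with a median ratio of 1.78, and 95.1% reached 1.4. Over all features that fall was seen in 21.8% and 21.5%. The genes share each library's total, and their agreement within a library is not independent. The choices also differ in strictness. With library a kept, which fell little in most genes, the remaining b or c had to fall further for the mean to reach 1.4-fold. The shares in b and c are therefore not a like comparison with that in a.

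**Figure D4:**
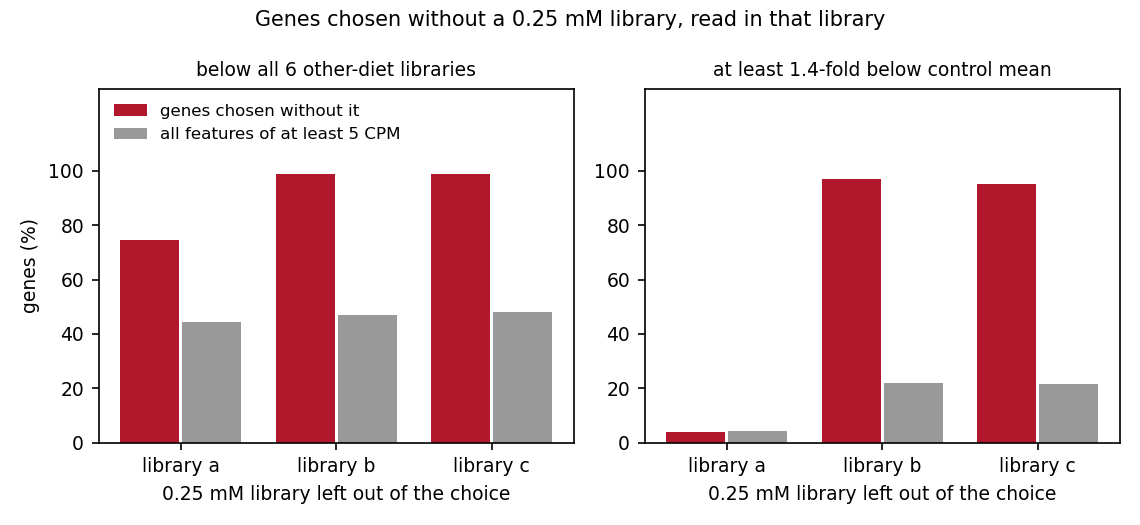
Percentage of the genes chosen without a 0.25 mM library (red; 755, 208 and 246 genes without a, b and c) and of all features of at least 5 CPM (grey) that, in the library left out, lie below all 6 control and 0.1 mM libraries (left) or at least 1.4-fold below the control mean (right). In library a 4.11% of the chosen genes pass the 1.4-fold fall, against 97.1% in b and 95.1% in c. The choices are not equally strict, and each used the control and 0.1 mM libraries.

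The other diets were read in the same way. When a control was left out, 96.6% to 99.7% of the chosen genes lay above all 3 libraries of 0.25 mM in it, against 48.9% to 52% of all features. When a 0.1 mM library was left out, 91.3% to 97.5% did so, against 44% to 55.5%. The choice had already placed the 0.25 mM libraries below all remaining libraries of the other diets. High shares in the library left out therefore largely follow from the rule. With controls 1, 2 and 3 each left out, the 0.1 mM mean was within 0.9 to 1.1 times that control in 75.7%, 68.9% and 75.2% of the chosen genes. Over all features this held in 65.3%, 58.3% and 71.1%. The 0.1 mM libraries had been used in those choices. With a 0.1 mM library left out, its closeness to control was near the background in 2 of 3 libraries. In 0.1 mM replicates 1, 2 and 3, each left out of the choice, the value was within 0.9 to 1.1 of the control mean in 69.1%, 66.2% and 67% of the chosen genes, beside 66.6%, 66.3% and 58.6% of all features. The median ratio of these single libraries to the control mean was 0.92 to 0.944 in the chosen genes and 0.965 to 1.02 over all features. The 0.949 of the members is not a like comparison. It comes from the mean of 3 libraries, in genes whose ratio the rule kept within 0.9 to 1.1.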

How the data were processed

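The values deposited by the authors are raw counts of reads per feature, not normalised, in 1 table of 9 libraries. The submitters' processing notes list CASAVA 1.8, HTSeq and edgeR with no roles. Aligner, build, annotation and strandedness were not given in the sources used here. Ambiguous reads, 3.03% to 3.58% per library, were listed apart from the features. How well the counts separate overlapping or antisense genes and near-identical copies is therefore not known. Column headings gave the diet, and 0 columns were unused. Replication numbers of the labels could not be given to the 0.25 mM columns. Whether replications are separate colonies is not stated, so p-values cover only the differences among these libraries, which may be technical.

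The 5 bookkeeping lines stayed out of totals and tests. Counts were analysed with edgeR 4.0.16 in R 4.3.3 (filterByExpr with diet as group, TMM, 1 coefficient per diet in all 9 libraries, glmQLFit, two-sided glmQLFTest, Benjamini-Hochberg over all genes, threshold 0.05). Fold changes are on the log2 scale of that fit. The SE of an edgeR fold change was derived as its absolute value divided by the square root of the F statistic. The 95% intervals use this SE and the degrees of freedom of the fit. Alternatives were DESeq2 1.42.0, other scalings, filters and rule thresholds, and the omission of libraries. The test was tried on simulated counts. Gene lists for pathways and tissues were written but could not be read without names. For genes without names, the text names at most 2 per question: the largest fall against control, the largest against 0.1 mM, the highest abundance, and those nearest inside and outside the required fall. Members and lists were chosen with earlier results of these data known.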

Additional observations from a re-analysis of the deposited data

How the results depend on the processing

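The number of members was 346. It was 166, 163 and 157 with TMM, RLE and upper-quartile library sizes, and 133 of the 166 were among the 346. A required fall of 1.2 or 1.6 gave 999 or 109, a narrower 0.1 mM band, with 0.95 as its lower limit and an upper limit as far above 1, gave 164, and the omission of 1 library gave 208 to 755 (755 without library a, 208 without b). The members called lower at 0.25 mM against control, 314, became 121 with only the 6 libraries of the compared diets (9.41% of all genes) and 43 to 346 with 1 library left out (3.72% to 28.6% of all genes). Those called between the doses, 0, became 256 in DESeq2 and 0 to 345 with 1 library left out, where 345 was without library a. Those off the line in dose, 0, became 0 to 121, again without library a, in fits chosen after the data were seen. No member was called at 0.1 mM in any of these fits (0 to 0 with 1 library left out).

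Median log2 fold changes with 1 library left out ran from -0.70 to -0.41 for 0.25 mM against control, -0.65 to -0.36 between the doses and -0.09 to -0.04 for 0.1 mM against control. Without both b and c, a choice made after the data were seen, the rule found 42 genes, 31 of them members, 0 members were called at 0.25 mM against control, and the medians were -0.18 against control and -0.12 against 0.1 mM. The lone library a was then assumed to vary like the other diets. The share of genes chosen without library a that lay below all 6 other-diet libraries in it, 74.4%, was 70.9% with a minimum of 1 CPM and 41.7% with TMM library sizes. The causes were not tested. All these medians kept their sign.

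With the replicate number as a replicate block, in control and 0.1 mM libraries only, 0 members were called, and 22 higher and 1 lower of all genes, against 32 and 6 in the same libraries without it. Same-numbered libraries did not deviate together (r = -0.0818, 0.0994 and -0.123), and not every library correlated best with its own number, so the numbers were not used as pairs. The headings of the 0.25 mM columns allow no such fit for that diet.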
